A study of Mus musculus with 24 samples.

Results

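The calcium-calmodulin-dependent protein kinases and neurogranin were followed in the mouse hippocampus after contextual fear conditioning at 3 and 16 months of age. The members were chosen by name: every array probe annotated to Camk1, Camk2a, Camk2b, Camk2d, Camk2g, Camk4, Camkk1, Camkk2 or Nrgn was taken, which gave 18 of the 41174 probes on the array for these 9 genes. Of these 18 probes, 17 were tested, and each of the 17 was well above background on 24 of 24 arrays. The Camk2d probe A_52_P169412 was well above background on 0 of 24 arrays and was not tested.

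When calcium enters a neuron it binds calmodulin, and the loaded calmodulin switches on this family of kinases. The kinase kinases Camkk1 and Camkk2 phosphorylate and activate Camk1 in the cytoplasm and Camk4, which lies largely in the nucleus and phosphorylates the transcription factor CREB, while CaMKII is a holoenzyme assembled from alpha, beta, delta and gamma subunits that phosphorylates itself and glutamate receptors at the synapse. Neurogranin, the Nrgn product, is a small postsynaptic protein that binds calmodulin at low calcium and releases it as calcium rises, and both neurogranin and CaMKII alpha are abundant in excitatory neurons of the forebrain.

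RNA came from the hippocampus of 24 mice, 1 array for each mouse and 4 mice in each of 6 groups, all on the C57Bl/6 background. Mice aged 3 or 16 months were fear conditioned (3 min in a new context, then 1 foot shock of 0.7 mA for 2 s) and their hippocampi were taken 1 h later, and untrained mice of each age that had been handled were the controls. Another 4 mice aged 3 months were placed in the context without a shock (context group), and another 4 received the shock before the context (shock-context group), with tissue also taken after 1 h. The submitters' labels give no genetic modification for any group. The control and fear arrays were hybridised on 4 slides, with 1 array of each of these 4 groups on each slide. The context and shock-context arrays were on other slides of a separate run scanned more than a year apart, so that for any comparison across the runs the run and the group cannot be told apart.

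The slide of a control or fear array carries its replicate number. Values are log2 of the processed signal minus the 75th percentile of the same array, so a value of 0 is a signal at that percentile. Differences were tested in limma over all 38766 probes that passed the filter on dim probes, two-sided with Benjamini-Hochberg adjustment and a threshold of 0.05, and the standard error (SE) beside a change is that of the fit. The 75th percentile of the signal was 757 to 2137 on the control and fear arrays and 3101 to 8369 on the context and shock-context arrays, and the number of arrays limits the precision. Fos, the immediate early gene used as a check of training, rose by 2.41 ± 0.29 (SE) on the log2 scale at 3 months and by 1.78 ± 0.29 at 16 months (limma, adjusted p = 1.29e-06 and 0.0123). All 14 excitatory neuron markers of the hippocampus were well above background on every array.

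Markers of choroid plexus, thalamus and blood moved with training at 3 months and are given first because every comparison with 3-month fear includes them. All 14 measured choroid plexus markers fell in 3-month fear against 3-month control, with a median of -3.39, and their summed level was 1.29 to 2.53 in 3-month fear, 5.36 to 6.20 in 3-month control and at least 5 on every array of the other groups. Of 13 thalamus markers, 10 rose and 1 fell at 3 months with a median of 0.99, and 6 rose at 16 months with a median of 0.86. Their summed level was 4.70 to 4.94 in 3-month fear against 4.21 to 4.46 in 3-month control, and 4.92 to 5.39 in 16-month fear against 4.21 to 4.52 in 16-month control. All 3 blood markers fell at 3 months (median -1.14), and among the 14 excitatory neuron markers there were 2 higher and 5 lower calls (median -0.03). Their summed level was 6.66 to 6.70 in 3-month fear against 6.82 to 6.93 in 3-month control, while their mean level overlapped. Summed levels were also lower for astrocytes (6.72 to 6.89 against 7.21 to 7.41) and microglia (3.59 to 3.73 against 3.82 to 3.91). They were higher for oligodendrocytes (7.32 to 7.45 against 7.04 to 7.13) and neocortex (2.07 to 2.16 against 1.57 to 1.88). Over all genes 43.5% were called at 3 months, 13.2% higher and 30.4% lower, and 0.138% at 16 months. The part of these tissue differences in the results on the kinases was not tested, and in bulk tissue fewer cells of a type and less RNA per cell cannot be told apart.

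The probes that carry the finding on Camk1 and 1 of the probes of Camk2d are shown as the array's design gives them, 5′ to 3′ and wholly in lower case, because both Camk1 probes rose together while the probes of Camk2d did not all move alike. The Camk1 probes lie on the minus strand of chromosome 6 at chr6:113286369-113286428 and chr6:113287209-113287268 (mm9), 840 bases apart. The annotated span of the Camk2d probe, chr3:126537519-126541191 on the plus strand, is longer than the probe.
Camk1 A_51_P106259: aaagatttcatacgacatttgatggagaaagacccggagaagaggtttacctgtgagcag
Camk1 A_51_P106263: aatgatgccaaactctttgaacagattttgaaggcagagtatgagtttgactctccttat
Camk2d A_51_P510817: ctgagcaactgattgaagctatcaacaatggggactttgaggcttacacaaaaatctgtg

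Fear conditioning at 3 months was accompanied by calls at most of the measured probes of this family, though not in every setting. Of the 17 probes, 13 passed the test in 3-month fear against 3-month control, 7 higher and 6 lower, and they belonged to 8 of the 9 genes, all but Camk2b. Over all probes tested 44.6% passed, 17.2% higher and 27.5% lower. Under quantile normalization 10 member probes passed, 8 higher and 2 lower, and higher calls rose from 38.5% to 52.3% of all calls. With normexp background correction 5 member probes passed, 3 higher and 2 lower, with 7025 calls over all probes. Averaging arrays 1 and 2 and arrays 3 and 4 left 6 member calls, 3 higher and 3 lower, with 11320 over all probes. Nrgn and 1 probe of Camk4 fell furthest, both probes of Camk1 and 3 of 4 tested probes of Camk2d rose, and the probes of Camkk2, of Camk4 and of Camk2d did not move together. The median change over all probes was -0.27, and with quantile normalization and median scaling it was -0.08 and -0.13. A change of about this size is therefore not apart from the shift of all probes. The percentile among the changes of all probes is given for Camk4 A_52_P672960, Camk2g and Nrgn.

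**Figure D1:**
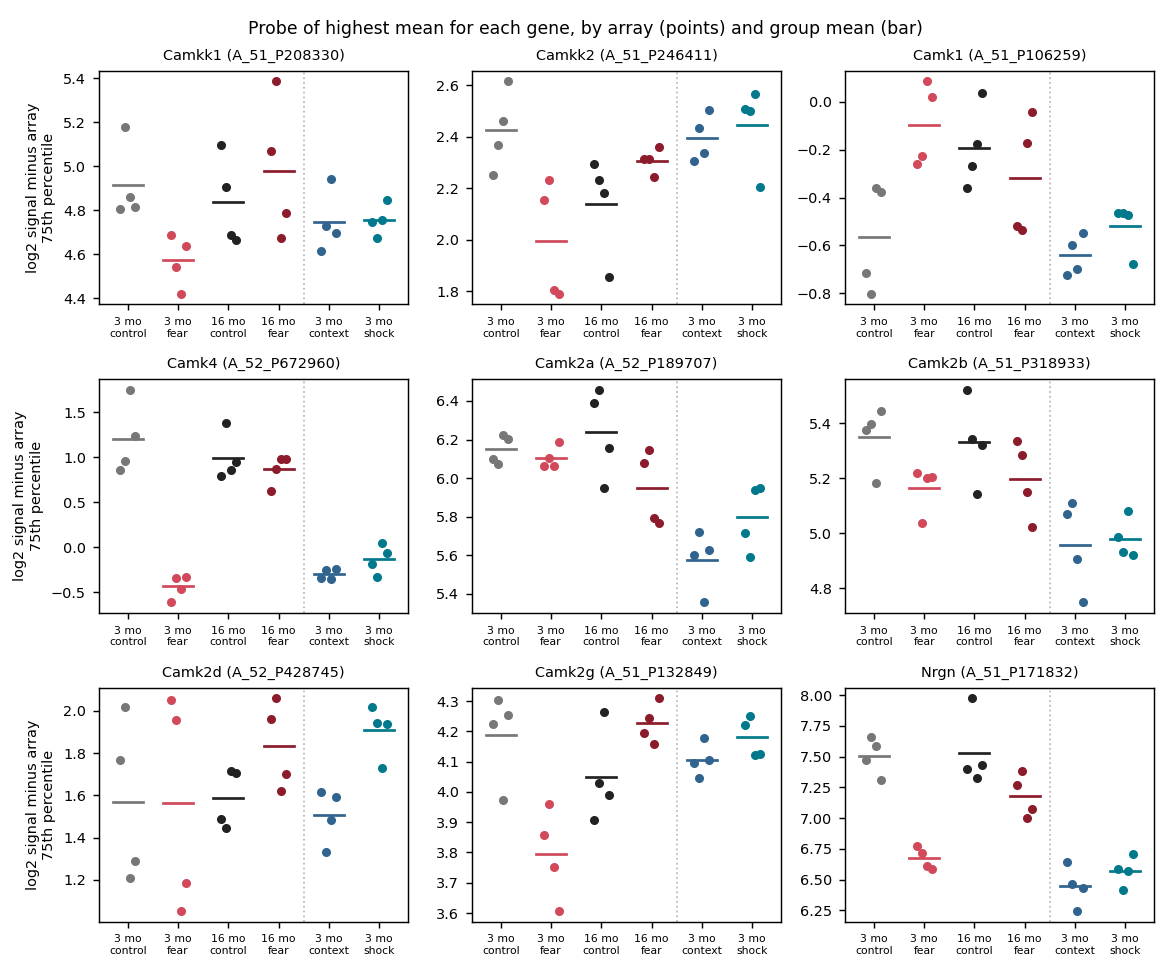
Log2 signal relative to the 75th percentile of the array (vertical axis, log2 units) for the highest-mean probe of each of the 9 genes in the 6 groups; each point is 1 array (4 a group), the bar is the group mean, and the dotted line separates the arrays of the separate runs. The 3-month fear arrays of Camk4 (-0.61 to -0.32) and Nrgn (6.58 to 6.77) lie below all 3-month control and 16-month arrays.

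Camkk1 and Camkk2 are the activating kinases of the cascade. Camkk1, measured by A_51_P208330 at chr11:72855450-72855509 on the plus strand, was at 4.80, 5.18, 4.86 and 4.82 in the 3-month controls and at 4.69, 4.54, 4.42 and 4.64 in 3-month fear. The fear arrays were all below the controls, by a narrow gap. The change was -0.34 ± 0.14 (SE; limma, adjusted p = 0.0462), but it passed in only 5 of 12 settings and, of the 8 fits that left out 1 array, only without control array 1 or fear array 1, and its sign turned with quantile normalization (0.08) and in the authors' deposited values (0.09). In 16-month controls Camkk1 was at 4.84 ± 0.21 (SD, n = 4) and in 16-month fear at 4.98 ± 0.32, where the arrays overlapped (0.14 ± 0.14, adjusted p = 0.678). The context and shock-context means were 4.75 ± 0.14 and 4.76 ± 0.07.

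Camkk2 gave opposite directions at its probes. Probe A_51_P246411 (chr5:123183355-123183414, minus strand), which matches a RefSeq mRNA, was at 2.25, 2.37, 2.46 and 2.62 in 3-month controls and at 2.15, 2.23, 1.80 and 1.79 in 3-month fear. All fear arrays were lower than all controls, and fear arrays 3 and 4 were lower than 1 and 2. The change was -0.43 ± 0.12 (SE; limma, adjusted p = 0.00579). It kept its sign but did not pass with quantile normalization (-0.24, adjusted p = 0.13), median scaling (-0.29, 0.101), normexp background correction (-0.42, 0.0779) or array pairs averaged (-0.43, 0.0688).

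The other Camkk2 probe, A_51_P442016 (chr5:123181525-123181584, minus strand), lies 1830 bases nearer the 3′ end and is annotated to a cDNA alone. It was at 1.07, 1.00, 1.17 and 0.99 in 3-month controls and at 1.44, 1.65, 1.75 and 1.69 in 3-month fear. The fear arrays were all above the controls, and also above every array of the other 4 groups. It rose by 0.58 ± 0.15 (SE; limma, adjusted p = 0.0043), and missed the threshold with array pairs averaged (adjusted p = 0.0571). At 16 months its values were 0.69, 1.26, 0.41 and 0.42 in controls and 0.68, 0.63, 0.78 and 0.77 in fear, a wide spread in the controls that held all fear arrays (0.02 ± 0.15, adjusted p = 0.971).

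Camk1, the cytoplasmic kinase acted on by the kinase kinases, rose at both probes at 3 months. A_51_P106263 was at -1.61, -1.61, -1.14 and -1.45 in 3-month controls and at -1.01, -1.08, -0.72 and -0.57 in 3-month fear. No control array reached the lowest fear array. The rise was 0.61 ± 0.12 (SE; limma, adjusted p = 0.000307), 1.52-fold, was between 0.42 and 0.88 within the 4 slides, and passed in 11 of 11 settings and 8 of 8 fits without 1 array.

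The second Camk1 probe, A_51_P106259, was at -0.72, -0.80, -0.36 and -0.38 in 3-month controls and at -0.26, -0.23, 0.09 and 0.02 in 3-month fear. In both groups arrays 3 and 4 were higher than arrays 1 and 2, and within each slide the fear array was higher, by 0.40 to 0.58. The rise was 0.47 ± 0.13 (SE; limma, adjusted p = 0.00608), which was lost with normexp (adjusted p = 0.0782) and with array pairs averaged (0.0664). At 16 months the probes stood at -0.19 ± 0.17 and -1.25 ± 0.07 (SD, n = 4) in controls and at -0.32 ± 0.25 and -1.28 ± 0.18 in fear, with overlapping arrays and no call (adjusted p = 0.7 and 0.938). In the other run, A_51_P106263 was at -1.04 ± 0.07 in context and -0.97 ± 0.05 in shock-context. It passed as higher than 3-month control in both, and 3-month fear did not pass against either. A_51_P106259 was at -0.64 ± 0.08 and -0.52 ± 0.105. It did not pass against control, and 3-month fear passed as higher than both. The run and the group cannot be told apart here.

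Camk4, the largely nuclear kinase that acts on CREB, held the largest change of any tested member probe. Probe A_52_P672960 (chr18:33344648-33344707, plus strand) was at 0.86, 0.96, 1.75 and 1.24 in 3-month controls and at -0.61, -0.34, -0.46 and -0.32 in 3-month fear. The fear arrays lay more than a full log2 unit below the lowest control. The probe fell by 1.64 ± 0.16 (SE; limma, adjusted p = 8.9e-08), 3.11-fold, at percentile 1.1 of the changes of all probes.

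The Camk4 decrease at this probe passed in 12 of 12 settings, between -1.75 and -1.45 over settings and left-out arrays, and was between -2.21 and -1.30 within the 4 slides. At 16 months the same probe was at 0.79, 1.38, 0.86 and 0.94 in controls and at 0.63, 0.87, 0.98 and 0.98 in fear. These groups overlapped, and the change was -0.13 ± 0.16 (SE; limma, adjusted p = 0.757), with a 95% interval of -0.46 to 0.20. Context arrays (-0.34, -0.25, -0.35 and -0.24) and shock-context arrays (-0.19, -0.33, 0.05 and -0.07) were at the level of 3-month fear, in the other run.

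The other Camk4 probes did not share this decrease. A_52_P94516 (chr18:33345372-33345431), 724 bases nearer the 3′ end and matching the same RefSeq mRNA, was at -1.14, -1.13, -0.97 and -1.14 in 3-month controls and at -0.74, -0.69, -0.88 and -1.03 in 3-month fear. Only fear array 4 fell below the highest control. It rose by 0.26 ± 0.09 (SE; limma, adjusted p = 0.0181), passed in 6 of 11 settings, and no longer passed without 3-month fear array 1 (adjusted p = 0.0583) or array 2 (0.0673).

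A_52_P191278 (chr18:33321531-33321590), annotated to a cDNA and under another gene name in the older annotation, was at -2.79, -2.44, -2.46 and -2.39 in 3-month controls and at -2.68, -2.78, -2.85 and -2.67 in 3-month fear. The arrays overlapped (-0.22 ± 0.16, limma, adjusted p = 0.259). Within each array, the log2 ratio of A_52_P94516 to A_52_P672960 was -2.72 to -2.01 in 3-month controls and -0.71 to -0.13 in 3-month fear, a difference of 1.90. In the exact permutation test the ratio reached the smallest two-sided p that 4 arrays against 4 can give (0.0286), which after adjustment over the 40 ratio tests was 0.0762.

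**Figure D2:**
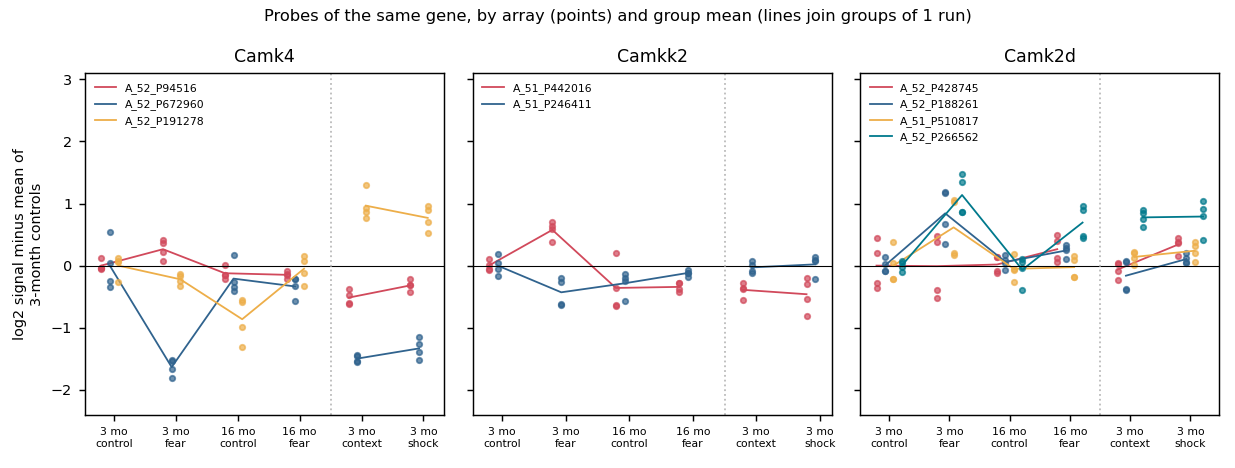
Log2 signal of each tested probe of Camk4, Camkk2 and Camk2d relative to that probe's mean in 3-month controls (vertical axis, log2 units) in the 6 groups. Points are arrays, lines join group means within a run, and the dotted line separates the runs. In 3-month fear the Camk4 probe A_52_P672960 lies far below its control mean (mean change -1.64) while A_52_P94516 lies above it (0.26), and the probes of Camkk2 part in the same way (-0.43 and 0.58).

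The subunits of CaMKII differed from each other. Camk2a, the alpha subunit and the main forebrain form, was measured by A_52_P189707 (chr18:61147519-61147578, plus strand) at 6.10, 6.07, 6.23 and 6.20 in 3-month controls and at 6.07, 6.10, 6.06 and 6.19 in 3-month fear. The groups lay on top of each other, with a change of -0.04 ± 0.12 (SE; limma, adjusted p = 0.767) and a 95% interval of -0.29 to 0.21. Quantile normalization turned this to 0.42 (adjusted p = 0.00681) and the authors' deposited values to 0.55 (0.000101), so the direction at this very bright probe changed with the scaling.

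At 16 months the Camk2a probe was at 6.39, 6.46, 5.95 and 6.16 in controls and at 6.08, 6.15, 5.79 and 5.77 in fear. The fear array was lower within 4 of 4 slides, by 0.15 to 0.39, but the groups overlapped and the change of -0.29 ± 0.12 did not pass (limma, adjusted p = 0.306). A dim Camk2a probe, A_51_P343218, whose annotated span runs from 61123597 to 61129653 on the same chromosome, was at -4.19, -4.29, -3.59 and -3.62 in 3-month controls and at -5.25, -4.62, -4.10 and -4.74 in 3-month fear. 1 fear array overlapped the controls, and the change of -0.76 ± 0.24 (SE; limma, adjusted p = 0.0135) was lost with normexp (adjusted p = 0.226), array pairs averaged (0.0742), the authors' values (-0.25, 0.0665), without 3-month control array 3 (0.0503) and without 3-month fear array 1 (0.0659).

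Camk2b, the beta subunit that ties the holoenzyme to actin, was measured by A_51_P318933 (chr11:5869835-5869894, minus strand). It was at 5.38, 5.39, 5.18 and 5.45 in 3-month controls and at 5.22, 5.04, 5.20 and 5.20 in 3-month fear, where the third control array lay within the fear arrays. The change of -0.18 ± 0.10 did not pass (limma, adjusted p = 0.14), and quantile normalization and the authors' values both gave 0.23 without passing. At 16 months controls were at 5.33 ± 0.15 (SD, n = 4) and fear at 5.20 ± 0.14, with overlap.

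Camk2g, the gamma subunit that is known to carry calmodulin to the nucleus, fell at 3 months. A_51_P132849 (chr14:21554205-21554264, minus strand) was at 4.22, 4.30, 3.97 and 4.25 in 3-month controls and at 3.86, 3.96, 3.75 and 3.61 in 3-month fear. The fear arrays were all lower, with the second fear array just under the third control. The change was -0.40 ± 0.09 (SE; limma, adjusted p = 0.00179), at percentile 41.8 of the changes of all probes, and it was -0.03 with quantile normalization, -0.25 with median scaling (adjusted p = 0.119), -0.14 with normexp and 0.13 in the authors' values, none of which passed. At 16 months fear was at 4.20, 4.24, 4.16 and 4.31 and controls at 3.91, 4.03, 4.26 and 3.99, and the change of 0.18 ± 0.09 did not pass (adjusted p = 0.412).

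Camk2d, the delta subunit, rose at 3 of its 4 tested probes. The dim probe A_52_P266562 (chr3:126512365-126512424, plus strand), annotated to a cDNA, was at -3.77, -3.80, -3.87 and -3.96 in 3-month controls and at -2.37, -2.51, -2.99 and -2.98 in 3-month fear. All fear arrays were higher. The rise of 1.14 ± 0.16 (SE; limma, adjusted p = 9.71e-06), 2.20-fold, was between 0.88 and 1.41 within slides but only 0.30 and not past the threshold with normexp (adjusted p = 0.603).

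The same Camk2d probe was at -3.75, -3.79, -3.88 and -4.24 in 16-month controls and at -3.40, -3.37, -2.96 and -2.90 in 16-month fear. The 16-month groups did not overlap either, and the change of 0.76 ± 0.16 missed the threshold (limma, adjusted p = 0.0726) and passed with quantile normalization (1.01, adjusted p = 0.0382) and over probes well above background on all 24 arrays (0.0456). Its difference between the ages was -0.38 ± 0.23 (adjusted p = 0.26).

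Of the Camk2d probes on RefSeq mRNAs, A_52_P188261 (chr3:126545798-126545857) was at -2.33, -2.56, -2.44 and -2.55 in 3-month controls and at -1.29, -1.29, -1.80 and -2.13 in 3-month fear. Every fear array was higher, arrays 1 and 2 most. The rise was 0.84 ± 0.15 (SE; limma, adjusted p = 0.000121), and 0.41 with normexp, where it did not pass (0.32). A_51_P510817 was at -0.66, -0.67, -0.07 and -0.40 in 3-month controls and at -0.28, -0.24, 0.58 and 0.61 in 3-month fear.

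These Camk2d groups overlapped at 1 control array, and within each slide the fear array was higher by 0.38 to 1.01. The rise of 0.62 ± 0.18 (SE; limma, adjusted p = 0.00966) was lost with the compared arrays alone (0.0686) and with array pairs averaged (0.0738). A_52_P428745 (chr3:126547685-126547744), the brightest and most 3′ of the Camk2d probes, was at 1.77, 2.02, 1.21 and 1.29 in 3-month controls and at 2.05, 1.96, 1.05 and 1.19 in 3-month fear. This probe did not split by training, and its change was -0.01 ± 0.20 (limma, adjusted p = 0.975). In both 3-month groups the arrays of slides 1 and 2 were above those of slides 3 and 4. Among the older mice on the same slides, the fear arrays kept this order (means 2.01 and 1.66). The older controls had the opposite order (means 1.47 and 1.71), so the order of the slides was not the same in every group.

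Neurogranin, the calmodulin buffer of the dendritic spine, fell at 3 months. Nrgn was measured by A_51_P171832 (chr9:37352101-37352160, minus strand) at 7.48, 7.66, 7.58 and 7.31 in 3-month controls and at 6.77, 6.72, 6.61 and 6.58 in 3-month fear. The groups were far apart, and the fear arrays lay close together. The decrease was -0.84 ± 0.13 (SE; limma, adjusted p = 2.63e-05), 1.79-fold, between -0.97 and -0.70 within the 4 slides.

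This Nrgn change stood at percentile 11.9 of all probes, and with quantile normalization it was -0.17 and did not pass (adjusted p = 0.0741), and in the authors' deposited values -0.26 (0.0269). At 16 months the controls were at 7.40, 7.97, 7.33 and 7.43 and the fear arrays at 7.27, 7.38, 7.003 and 7.07. The fear arrays were lower within each slide, by 0.13 to 0.59, but 1 fear array overlapped the controls and the change of -0.35 ± 0.13 did not pass (limma, adjusted p = 0.263). The context arrays were at 6.64, 6.46, 6.25 and 6.43, of which the third was saturated, and the shock-context arrays at 6.59, 6.42, 6.57 and 6.71.

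Set against Camk2a on the same array, a ratio in which the scaling of the array cancels, Nrgn was 0.79 lower on the log2 scale in 3-month fear than in 3-month controls and Camk4 (A_52_P672960) 1.59 lower. For both ratios the fear and control arrays did not overlap, and each reached the smallest exact permutation p of 0.0286 (adjusted 0.0762 over 40 tests). Over all ratios of a member's highest-mean probe to Camk2a, 4 of 8 did not overlap at 3 months, where the same ratio did not for 38.4% of all genes, and 2 of 8 at 16 months (all genes 9.36%). Of the ratios between probes of 1 gene, 6 of 12 did not overlap at 3 months and 3 of 12 at 16 months, against 40.1% and 5.51% of such ratios on the whole array. The shares at 3 months are thus near those of all genes. None of the 40 passed after adjustment. With a smallest possible exact permutation p of 0.0286, no ratio could pass over 40 tests unless many reached it, so this decides nothing. Such ratios show unequal change and not which side moved.

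At 16 months fear conditioning was accompanied by few calls anywhere on the array. Of the 17 member probes, 1 passed in 16-month fear against 16-month control, while over all probes 0.126% passed, 0.111% higher and 0.0155% lower. Before adjustment 5155 of 38766 probes had a p below 0.05 in limma. The called probe was Camk4 A_52_P191278, at -3.12, -3.08, -3.51 and -3.84 in 16-month controls and at -2.84, -2.64, -2.44 and -2.36 in 16-month fear. The groups did not overlap, and control arrays 3 and 4 were lowest.

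The rise of this Camk4 probe was 0.81 ± 0.16 (SE; limma, adjusted p = 0.0438). It passed in 5 of 11 settings and was lost, for example, where pairs of arrays formed a random block (0.264) and without 16-month control array 3 (0.103) or 4 (0.205) or 16-month fear array 2 (0.11), 3 (0.135) or 4 (0.227). Between the control groups the same probe was the only member called, -0.86 ± 0.16 at 16 against 3 months (limma, adjusted p = 0.0112), where 0.547% of all probes passed, 0.356% higher and 0.191% lower. It no longer passed without 16-month control array 3 (0.0509) or 4 (0.0551), while Camkk2 A_51_P442016 passed without array 2 (-0.55, 0.0394). These comparisons share the 16-month controls.

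**Figure D3:**
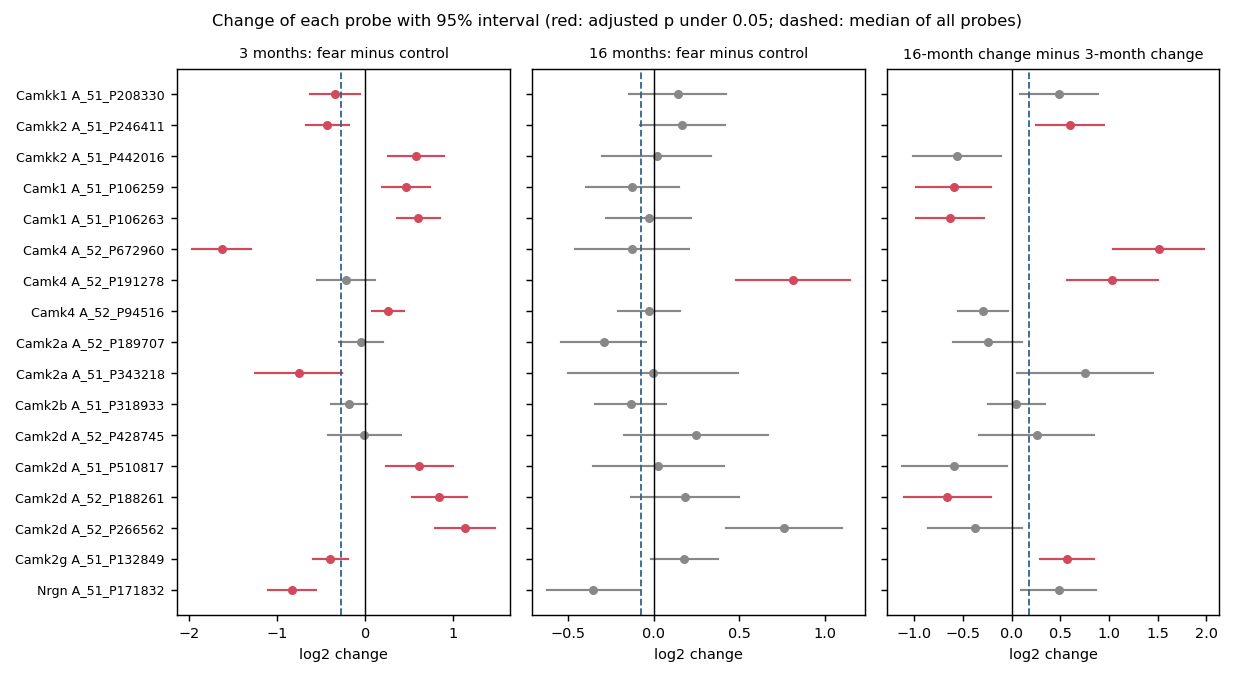
Log2 change and 95% interval of the 17 tested probes (horizontal axis, log2 units) in 3-month fear minus control, 16-month fear minus control, and the difference between these changes; red marks an adjusted p under 0.05 and the dashed line the median of all probes. At 3 months 13 probes are red and at 16 months 1, and in the difference panel the Camk4 probe A_52_P672960 lies furthest to the right (1.51).

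The difference between the ages was tested as such. The change at 16 months minus the change at 3 months passed for 7 of 17 member probes, 4 higher and 3 lower, against 25.9% of all probes, 14.3% higher and 11.5% lower. Under quantile normalization 7 member probes also passed, 2 higher and 5 lower, and higher calls fell from 55.4% to 44.3% of all calls. For Camk4 A_52_P672960 it was 1.51 ± 0.23 (SE; limma, adjusted p = 5.68e-05), and this was the only member call kept in every setting and every fit without 1 array. Camk4 A_52_P191278 differed by 1.03 ± 0.23 (adjusted p = 0.00173), Camkk2 A_51_P246411 by 0.60 ± 0.17 (0.0113) and Camk2g by 0.57 ± 0.13 (0.00285).

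The response of Camk1 was lower at 16 months, by -0.63 ± 0.17 at A_51_P106263 and -0.59 ± 0.18 at A_51_P106259 (SE; limma, adjusted p = 0.00773 and 0.0208), and that of Camk2d A_52_P188261 by -0.66 ± 0.21 (0.0264). The A_51_P106259 difference missed the threshold without 3-month control array 2 (0.051) or 16-month fear array 2 (0.0515), and that of Camk2d without the same arrays (0.0502 and 0.0559) or 3-month fear array 1 (0.0625) or 2 (0.0628). For Nrgn the difference was 0.48 ± 0.18 and did not pass (adjusted p = 0.0584). It passed without 16-month control array 2 (0.63, 0.00412), which stands apart from the other arrays of its group, and without 3-month control array 4 (0.0372) or 16-month fear array 3 (0.042). Quantile normalization took the Camk2g difference to 0.26 (0.16) and that of Camkk2 A_51_P246411 to 0.42 (0.0885).

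After conditioning, 16-month and 3-month mice differed at 12 of 17 member probes, 6 higher and 6 lower at 16 months, where 39.9% of all probes passed, 22.9% higher and 17% lower. Under quantile normalization 10 passed, 2 higher and 8 lower, and higher calls fell from 57.4% to 46.2% of all calls. Camk4 A_52_P672960 was 1.30 ± 0.16 (SE) higher at 16 months (limma, adjusted p = 1.61e-06), 2.46-fold, and Nrgn 0.51 ± 0.13 higher (0.00337), which with quantile normalization was 0.08 and did not pass (0.5). Camkk2 A_51_P442016 was lower by -0.92 ± 0.15 and Camk4 A_52_P94516 by -0.41 ± 0.09, which with normexp was -0.14 and did not pass (0.496). No array of 16-month fear overlapped 3-month fear at any of these 4 probes. They were picked from the 12 called, so this is no separate result about the members. The share of all probes without such overlap was not computed for this comparison.

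The comparisons with the context and shock-context groups cross the runs, so the run and the group cannot be told apart in any of them. Against 3-month control, 9 of 17 member probes passed in the context group (3 higher, 6 lower) where 68.8% of all probes did (18.4% higher, 50.4% lower), and 9 passed in the shock-context group (3 higher, 6 lower) where 65.4% did (16.1% higher, 49.3% lower). Median scaling turned the members' calls to 6 higher and 2 lower for context and 9 higher and 2 lower for shock-context, and moved higher calls from 26.8% to 46.8% and from 24.6% to 48.8% of all calls. Nrgn was lower by -1.06 ± 0.13 and -0.94 ± 0.13 (SE; quantile normalization -0.28 and -0.34), and Camk4 A_52_P672960 by -1.498 ± 0.16 and -1.33 ± 0.16 (quantile normalization -1.48 and -1.30), all of which passed. The Nrgn spot was saturated on context array 3, so its level there is only a lower bound, and without that array the difference from control was -0.996 and still passed.

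In 3-month fear against context 9 of 17 passed (6 higher, 3 lower; all probes 65.9%, 46.1% higher and 19.8% lower), and against shock-context 8 of 17 (5 higher, 3 lower; all probes 64.9%, 46% higher and 18.9% lower). Neither Nrgn (0.23 ± 0.13, limma, adjusted p = 0.132, and 0.10 ± 0.13, 0.507) nor Camk4 A_52_P672960 (-0.14 ± 0.16, 0.463, and -0.30 ± 0.16, 0.103) passed in these, but in the authors' deposited values Nrgn was higher in fear than in context (0.23, 0.039). Median scaling moved higher calls from 70% to 58.1% and from 70.9% to 55.9% of all calls, and with it Camk4 was lower in fear than in context (-0.35, 0.022) and shock-context (-0.54, 0.001). Camkk2 A_51_P442016 was higher in fear than in both, by 0.97 ± 0.15 and 1.04 ± 0.15.

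Context and shock-context lay within 1 run and could be compared directly. In limma 0 of 17 member probes and 0% of all probes passed at an adjusted p of 0.05. An unadjusted p below that threshold was held by 2188 of 38766 probes, and quantile normalization called 2 probes. The member with the greatest difference was Camk2d A_52_P428745, -0.40 ± 0.20 in context against shock-context (adjusted p = 0.88), 1 of 17 member probes whose arrays did not overlap, as did those of 6.97% of all probes.

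Over all 6 groups, the order of the group means with the neighbours whose arrays overlapped was as follows. The places of context and shock-context among the other groups cross the runs, so the run and the group cannot be told apart there. For Nrgn the 16-month controls (7.53 ± 0.30, SD, n = 4), 3-month controls (7.51 ± 0.15) and 16-month fear (7.18 ± 0.18) overlapped as neighbours, and 3-month fear (6.67 ± 0.09), shock-context (6.57 ± 0.12) and context (6.45 ± 0.16, with 1 array saturated) formed a lower set, with no overlap between 16-month fear and 3-month fear. Camk4 A_52_P672960 fell into the same sets, with 3-month controls (1.20 ± 0.40), 16-month controls (0.99 ± 0.27) and 16-month fear (0.87 ± 0.17) above shock-context (-0.13 ± 0.16), context (-0.30 ± 0.06) and 3-month fear (-0.43 ± 0.13). For Camk2a A_52_P189707, Camk2b, Camk2g, Camkk1 and Camkk2 A_51_P246411, every neighbouring pair of groups overlapped.

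The means of arrays 1 and 2 and of arrays 3 and 4 of a group lay further apart than the arrays within either pair for 9 of 17 member probes in 3-month control (37.9% of all probes), 10 in 3-month fear (51.2%), 7 in 16-month control (25.2%) and 12 in 16-month fear (36.7%). In context and shock-context this held for 4 and 7 of 17 (33.3% and 32.6% of all probes). Averaging arrays 1 and 2 and arrays 3 and 4 left 6 of the 13 calls at 3 months. Array 2 of the 16-month controls stood apart, with an SD of its probe differences to the other 16-month controls of 0.85 to 0.94, against 0.33 to 0.48 among those. Only 2 of the 13 calls at 3 months, Camk4 A_52_P672960 and Camk1 A_51_P106263, held in every setting, and 10 of 13 in every fit without 1 array.

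The other genes of the pathway, taken from lists of calmodulin genes, further calmodulin-dependent kinases, inhibitors and phosphatases, calcineurin and calmodulin-binding effectors, numbered 47 with a tested probe. At 3 months 10 rose and 14 fell (median -0.13), against 43.5% of all 26176 genes called, 13.2% higher and 30.4% lower, with a median of -0.35. The split changed with the scaling, to 14 higher and 8 lower with quantile normalization, 14 and 10 with median scaling, 5 and 7 with normexp, and 13 and 6 in the authors' deposited values. At 16 months 0 of 47 passed against 0.138% of all genes (0.122% higher, 0.0153% lower), and between the controls 0 against 0.642% (0.416% higher, 0.225% lower). After conditioning 19 of 47 were higher and 10 lower at 16 than at 3 months (all genes 38.1%, 25% higher and 13.1% lower), and the response differed between the ages for 10 higher and 9 lower (all genes 24.3%, 16.1% higher and 8.13% lower).

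Among the calmodulin genes, Calm2 (-0.34) and Calm3 (0.12), which encode calmodulin, did not pass at 3 months in limma, and with quantile normalization both were higher and passed (0.34 and 0.54). Calml4 fell (-3.88), is named after its value was seen, and is also on the list of choroid plexus markers.

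Of 15 further kinases and relatives 4 rose and 3 fell at 3 months, where 13.2% of all genes rose and 30.4% fell. Camk1d, a relative of Camk1, fell by 1.06 ± 0.27 (SE; limma, adjusted p = 0.00257), and Camkv, a kinase-like protein without catalytic activity, rose by 0.37 ± 0.10 (0.00479), while Camk1g (0.26) passed only with median scaling (0.40) and in the authors' values (0.48). Camkv did not pass with normexp (0.31). Of 4 inhibitors and phosphatases 3 fell, with quantile normalization or normexp 1 did, and in the authors' deposited values 0 did. Camk2n1, an endogenous inhibitor of CaMKII, fell by 0.64 ± 0.08 (adjusted p = 3.48e-06) and Ppm1e, a phosphatase of the kinases, by 0.49 ± 0.09 (0.000194), and neither passed with normexp (-0.44 and -0.46) or in the authors' deposited values (-0.12 and -0.18). Camk2n2, the second inhibitor, was at 0.23 and did not pass, but was at 0.66 and passed with quantile normalization, and also passed with median scaling (0.37).

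Of 8 genes of calcineurin, the calmodulin-activated phosphatase, and its regulators, 1 rose and 3 fell, where 43.5% of all genes were called. The catalytic subunits Ppp3ca (-0.44 ± 0.11) and Ppp3cb (-0.42 ± 0.11) fell (limma, adjusted p = 0.00262 and 0.00488), but with quantile normalization they were at 0.07 and -0.07 and did not pass, and the regulatory subunit Ppp3r1 (-0.40) did not pass. Of 15 effectors 4 rose and 4 fell, against the same share of all genes. Adcy1, the calmodulin-stimulated adenylyl cyclase, rose by 1.05 ± 0.13 (adjusted p = 1.37e-06) from 2.89 ± 0.29 to 3.94 ± 0.18, and Pde1a, a calmodulin-stimulated phosphodiesterase, fell by 0.80 ± 0.13 (4.18e-05).

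Gap43, a presynaptic calmodulin-binding protein related to neurogranin, rose by 0.57 ± 0.18 at 3 months (SE; limma, adjusted p = 0.0117; with normexp 0.0593), and Pcp4, a small calmodulin-binding protein of the same motif family, was at 0.09 and did not pass, but passed with quantile normalization (0.50). At 16 months none of these genes passed, with changes that included 0.29 at Pcp4, 0.25 at Gap43, 0.09 at Adcy1, -0.14 at Camk2n1 and -0.25 at Camkv. The greatest rise on the lists, chosen after the values were seen, was that of Camta2, a calmodulin-binding transcription activator (1.56 ± 0.17, adjusted p = 2.92e-07).

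By the fixed measure, the root mean square difference of mean-centred values over the 16 control and fear arrays, the genes of most similar pattern to Nrgn among 16138 candidates were Mocs2 (0.085), Rasgef1a (0.087) and Fam131a (0.091), where the spread of Nrgn itself was 0.386. For Camk2a they were Ssbp4 (0.104), Rnf181 (0.107) and Wdr24 (0.108), against a spread of 0.173. For Camk4 A_52_P672960 they were Atp5j2 (0.152), Dusp3 (0.158) and Shank1 (0.18), against 0.68. These arrays share slides and scaling, so the values are descriptions.

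Opposite calls at probes of 1 gene were common on this array at 3 months. Of 2517 genes with at least 2 called probes in 3-month fear against control, 985 (39.1%) had calls of both signs, and among the members Camk4 and Camkk2 did.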

How the data were processed

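Total RNA of each hippocampus, 600 ng with an RNA integrity number of 9 to 10, was labelled with Cy3 per the labels' protocols. The deposited scanner files give the intensity of each spot; per the file headers they were written by Agilent Feature Extraction 9.5.3.1, and their processed signal is already background subtracted. The authors' deposited table was read as log2 values, although its scale and centring are not stated; its columns keep the order of the median spot signal (Spearman 1) and share a median of 8.57. It served as an alternative.

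Processed intensity was taken to log2 minus the 75th percentile of each array. Outlier spots were left out and spots of a probe averaged. A probe was kept where 4 or more of the 24 arrays had it well above background. Group means of 24 arrays were fitted in limma 3.58.1 (R 4.3.3), with 18 residual degrees of freedom. For counts of genes the highest-mean probe stood for a gene. Probe names and mm9 positions come from the 8 files with the newer annotation, and the other 16 name 17 of the 18 member probes. No genome of that build was used here, so exon and UTR status is not given. The named genes were the members, a fixed panel of 16 pathway genes, Fos, and for 3 members the 3 genes of most similar pattern. The members and lists were chosen with earlier results of these data known. Alternatives were quantile and median scaling, normexp with offset 50, other filters, outlier spots kept, only compared arrays, slide and array pairs as blocks, pairs averaged, and leaving out each array. Ratios of probes within an array, tested by exact permutation over 40 comparisons (scipy 1.17.1), were added after seeing the data. On simulated data of the 3-month design, 34 and 28 of 50 probes shifted by 1 and -1, and 8 and 7 of 50 shifted by 0.5 and -0.5, were recovered, with 5 of 38566 unchanged probes called. Far fewer probes were shifted there than the 17307 called in the real comparison, so these rates need not carry over to it. The replicate numbers are the slides of the control and fear arrays. Same-numbered arrays of these groups deviated together (correlation above 0.1) in 15 of 24 cases, from -0.42 to 0.65, and the numbers were not used as a pairing of mice. The result of 1 gene of the fixed panel is not reported here.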

Additional observations from a re-analysis of the deposited data

Results flagged for a closer look

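In 102 groups of 4 arrays checked over the 17 probes, 7 held an array far from the other 3, and chance marks about 1 in 20 such groups. Camk1 A_51_P106259 was at -0.68 on shock-context array 4, with the others from -0.47 to -0.46, and Camk1 A_51_P106263 at -1.04 on shock-context array 2, with the others from -0.95 to -0.94. Camk2b was at 5.04 on 3-month fear array 2 (others 5.20 to 5.22). Camk4 A_52_P191278 was at -2.79 on 3-month control array 1 (others -2.46 to -2.39) and Camk4 A_52_P94516 at -0.97 on 3-month control array 3 (others -1.14 to -1.13). Camkk1 was at 5.18 on 3-month control array 2 (others 4.80 to 4.86). Nrgn was at 7.97 on 16-month control array 2 (others 7.33 to 7.43), the array that stands apart over all probes.

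For 7 probes the response to conditioning differed between the ages by the test of the difference itself in limma. The change at 16 months minus that at 3 months was -0.59 and -0.63 at Camk1 A_51_P106259 and A_51_P106263, -0.66 at Camk2d A_52_P188261, 0.57 at Camk2g, 1.03 at Camk4 A_52_P191278, 1.51 at Camk4 A_52_P672960 and 0.60 at Camkk2 A_51_P246411.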

How the results depend on the processing

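Calls over all probes in 3-month fear against control, 17307, became 7025 with normexp, 11320 with array pairs averaged and 11321 with the highest-mean probe per gene, and the share of higher calls, 38.5%, became 52.3% with quantile and 52.5% with median scaling. The 16-month response, 49 calls, became 155 with quantile normalization, 0 with normexp, 2 with only the compared arrays, 1 with pairs averaged and 10 where pairs were a random block. The control groups' age difference, 212 calls, became 13 with normexp, 14 with the compared arrays, 4 with pairs averaged and 42 where pairs were a random block. The difference in response, 10032 calls, became 2646, 4155 and 6245 with normexp, pairs averaged and the highest-mean probe. The 16- against 3-month fear comparison, 15455 calls, became 7464 with normexp and 9912 with the highest-mean probe, and 3-month fear against context and shock-context (25544 and 25145) became 13127 and 10524 with normexp. Context against shock-context had 0 calls and 2 with quantile normalization. Fewer probes or arrays are tested with the highest-mean probe, the compared arrays and averaged pairs; for the others the cause was not tested.

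With the slide, which is the replicate number, as a replicate block, the 16-month response had 22 calls, the control age difference 98 and the 3-month response 21074. Camk4 A_52_P191278 then missed the threshold in both 16-month comparisons (adjusted p = 0.149 and 0.0821), as did Camk2d A_52_P266562 (0.0564) and Camkk2 A_51_P246411 (0.0766) in 16- against 3-month fear and Camk2d A_52_P188261 (0.0509) in the difference in response, where Nrgn passed (0.0421). The block changed no other member call. Of the 16 arrays, 7 correlated best with their own number. Leaving out 1 array gave 9 to 120 calls for the 16-month response, 83 to 310 for the control age difference, 15101 to 17703 at 3 months, 8830 to 10830 for the difference in response and 0 to 1 for context against shock-context. The 16-month response had its 9 calls without 16-month fear array 4, the control age difference its 83 without 16-month control array 4, and both were highest without 16-month control array 1.

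Values at the following member probes changed sign where either the value reported or the alternative passed the threshold; changes of sign between values that both missed it, such as Camk2b at 3 months (quantile 0.23), are not listed. They were, in 3-month fear against control, Camk2a A_52_P189707 (quantile 0.42, authors' values 0.55), Camkk1 (0.081 and 0.090) and Camk2g (authors' values 0.13). In 16- against 3-month fear they were Camk2b (quantile -0.30, authors' values -0.37) and Camk2d A_52_P266562 (normexp 0.31). In context against control they were Camk2a A_51_P343218 (quantile 0.56, authors' values 0.47), Camk2b (quantile 0.015), Camk2g (0.27 and 0.48), Camk1 A_51_P106259 and Camkk2 A_51_P246411 (median scaling 0.27 and 0.32) and Camk2d A_52_P266562 (normexp -0.24). In shock-context against control they were Camk2a A_51_P343218 (quantile 0.52, authors' values 0.43), Camk2a A_52_P189707 (quantile 0.13, median scaling 0.028, authors' values 0.071), Camk2g (0.28, 0.37 and 0.51), Camk2b and Camk4 A_52_P94516 (median scaling 0.008 and 0.060) and Camk2d A_52_P266562 (normexp -0.22).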
